A study of Homo sapiens with 14 samples.

Results

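Within a long culture of hTERT-immortalized human lung fibroblasts, 2 neighbouring pairs of arrays mark a further drop of CDKN2A, the gene of the cell cycle inhibitor p16. The later pair consists of A67 replicate 2 and A95 replicate 1, and the earlier pair of A58 replicate 2 and A67 replicate 1. These are 4 of the 14 arrays of the series. The pairs were chosen by neighbouring position across the borders of the labels, after measured values had shown how alike the arrays were and where CDKN2A differed. Every difference between the pairs is therefore a description, and none was tested.

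The cells were WI-38, a diploid fibroblast strain from human lung, immortalized with hTERT, the catalytic subunit of telomerase. All 4 arrays carry the letter A and hTERT, and all cells grew in MEM with fetal calf serum and were passaged every week at a fixed seeding number. By label, A67 replicate 2 came from passage 67 and A95 replicate 1 from passage 95, while A58 replicate 2 came from passage 58 and A67 replicate 1 from passage 67. The remaining 10 arrays, again by label, included 2 of primary cells at passage 19 and 2 of hTERT cells labelled B at passage 96. The others were 2 each of A39 and A50, A58 replicate 1 and A95 replicate 2. The sources used here do not say what the letters A and B mean. The labels call the 2 arrays of a group biological duplicates and do not say whether these came from separate cultures. Each array was an Affymetrix Human Gene 1.0 ST array, with 28869 deposited log2 values.

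The labels of these arrays may be displaced by 1 position. TERT, the gene of hTERT, was at 7.07 in primary replicate 1 but at 11.70 in primary replicate 2, near the 11.62 of A39 replicate 1. Over all rows, A58 replicate 2 and A67 replicate 1 were each other's closest array, with a Pearson correlation of 0.9895 and 221 rows differing by at least 1 log2. The 2 arrays labelled A67 correlated at 0.9833 and differed in 454 rows. A67 replicate 2 was closest to A95 replicate 1, at 0.9876 and 309 rows. The closest partner of A95 replicate 1 is not settled. Over all rows it was A67 replicate 1, at 0.9884 and 302 rows, and after quantile normalization it was again A67 replicate 1, at 0.9889 against 0.9887 for A67 replicate 2. Over genes with a row of 1 symbol, the order turned, with 0.9904 for A67 replicate 2 and 0.9887 for A67 replicate 1, and with 62 and 118 genes differing by at least 1 log2. Over rows above the 30th percentile of brightness, A67 replicate 2 also led, at 0.9886 against 0.9861, but the Spearman correlations there were 0.9817 for both. These correlations run across rows, which are not independent replicates, and all arrays share a platform and a processing. Against the other 10 arrays, the 4 arrays correlated at 0.9423 to 0.9806, so all 6 pairs among the 4 were more alike than any of them was to the rest.

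As background, p16 binds the kinases CDK4 and CDK6 and keeps them from phosphorylating RB. Unphosphorylated RB holds E2F transcription factors, which drive genes of DNA replication. The DREAM and MuvB complexes act on genes of mitosis through a short element called CHR. Cultured fibroblasts accumulate p16 as they age, and its promoter is a known target of silencing by DNA methylation and Polycomb proteins in immortal cells. The same locus encodes ARF, which acts on p53 and shares exons with p16, so the single CDKN2A row cannot tell the p16 and ARF transcripts apart.

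Promoter sequences from RefSeq (GRCh38.p14, 250 bases before to 50 after each start) are shown to place CDKN2A and the cell cycle genes beside the elements named above. The window at the p16 start of CDKN2A holds 26 CpG dinucleotides in 300 bases, written in capitals. DNA methylation was not measured on these arrays.
CDKN2A (chr9:21974808-21975107, - strand): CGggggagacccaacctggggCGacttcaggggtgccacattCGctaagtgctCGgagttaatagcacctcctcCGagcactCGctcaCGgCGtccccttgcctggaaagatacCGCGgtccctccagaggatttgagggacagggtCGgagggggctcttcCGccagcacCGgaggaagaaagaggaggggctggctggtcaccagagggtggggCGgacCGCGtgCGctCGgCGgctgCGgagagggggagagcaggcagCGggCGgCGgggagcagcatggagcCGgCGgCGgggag
Stretches of 40 bases from 4 promoters of genes that were higher in the later pair follow, with matches to E2F letters in capitals. The letters searched were TTTCCCGC, TTTCGCGC, TTTGCCGC, TTTGGCGC and TTTGGCGG on both strands. In RBL1, the 2 matches lie side by side.
MCM10 (chr10:13161547-13161586, + strand): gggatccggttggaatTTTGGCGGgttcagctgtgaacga
CDC6 (chr17:40287835-40287874, + strand): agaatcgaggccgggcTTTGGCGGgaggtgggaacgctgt
CLSPN (chr1:35769960-35769999, - strand): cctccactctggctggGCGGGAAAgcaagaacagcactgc
RBL1 (chr20:37096000-37096039, - strand): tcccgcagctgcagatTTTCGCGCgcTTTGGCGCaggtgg
A further 3 stretches show the CHR letters TTTGAA, searched on both strands, in promoters of mitotic genes. In HMMR, the 2 matches adjoin.
CDK1 (chr10:60778393-60778432, + strand): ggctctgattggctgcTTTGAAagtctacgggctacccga
HMMR (chr5:163460588-163460627, + strand): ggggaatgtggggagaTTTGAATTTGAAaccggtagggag
MKI67 (chr10:128126447-128126486, - strand): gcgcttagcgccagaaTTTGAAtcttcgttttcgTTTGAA
The letters were chosen after counts of matches had been seen. E2F letters occurred in 20 of 36 promoter windows of the genes for origin licensing and firing (55.6%) and in 13 of 36 windows of the replication fork genes (36.1%), against 3.92% of all 35116 windows. In other lists, E2F letters occurred in 4 of 35 windows of mitotic genes (11.4%), 2 of 18 of repair genes (11.1%), and 5 of 28 of p53 targets (17.9%). They also occurred in 6 of 28 windows of the p16 and RB axis (21.4%), 7 of 34 of Polycomb and DNA methylation genes (20.6%) and 0 of 34 of matrix genes. Whether the share goes with the direction of a list was not tested. The CHR letters occurred in 22 of 35 windows of the mitotic genes (62.9%) and in 1 of 36 windows of the licensing genes (2.78%), against 15.2% of all windows. A match describes the letters and is not evidence of a bound factor.

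CDKN2A was at 6.33 in A67 replicate 2 and 6.54 in A95 replicate 1, against 8.10 in A58 replicate 2 and 7.85 in A67 replicate 1. The later pair held the 2 lowest values of the series, since the other 10 arrays lay between 7.79 and 9.59. The means were 6.44 ± 0.15 in the later pair and 7.98 ± 0.18 in the earlier pair (SD, n = 2 each), a difference of -1.54 log2 or 2.91-fold lower on the linear scale. The earlier pair was itself below the range of 8.80 to 9.59 spanned by the arrays labelled primary, A39 and A50 and by A58 replicate 1. After the later pair in label order, CDKN2A was at 7.84 in A95 replicate 2, 7.79 in B96 replicate 1 and 8.87 in B96 replicate 2. The low level was thus held by these 2 arrays and not by the other array labelled A95. In bulk RNA, fewer cells with the transcript and less transcript per cell cannot be told apart.

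LIMCH1, whose product binds and activates non-muscle myosin II, was at 9.92 and 9.80 in the later pair, against 6.43 and 6.01 in the earlier pair. This was the largest difference of all genes, at 3.64 log2 or 12.5-fold. Unlike CDKN2A, it was no extreme of the series: A95 replicate 2 was at 9.72, B96 replicate 1 at 9.92 and A39 replicate 2 at 9.17, while A50 replicate 2 was at 5.36. MCM10, a factor that helps to activate the replicative helicase, was at 10.23 and 10.10 in the later pair, against 9.30 and 9.29 in the earlier pair. Its difference of 0.87 log2 stayed under 1 log2, and the other 10 arrays reached 9.29 at most. TERT was at 11.16 and 11.18 in the later pair, against 11.29 and 11.04 in the earlier pair, so the pairs overlapped for the gene of the immortalizing enzyme.

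**Figure D1:**
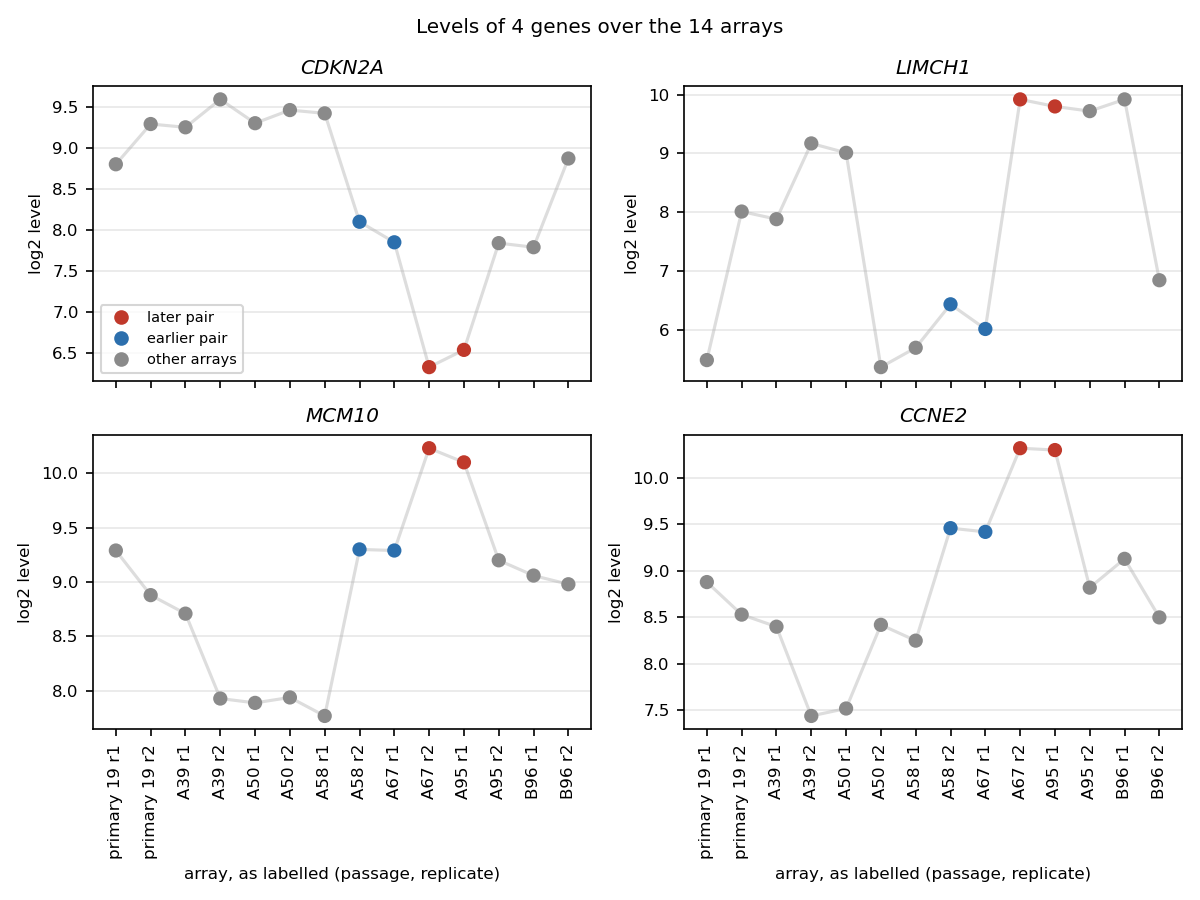
Log2 levels of CDKN2A, LIMCH1, MCM10 and CCNE2 (y axis) in the 14 arrays in the order of their labels (x axis), each point 1 array, with the later pair in red, the earlier pair in blue and the other arrays in grey. CDKN2A has its 2 lowest values, 6.33 and 6.54, in the later pair, where MCM10 and CCNE2 have their highest.

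A gene or row was counted as higher or lower where the 2 arrays of the later pair lay on 1 side of both arrays of the earlier pair and the means differed by at least 1 log2. By this rule 121 rows were higher (0.419% of 28869) and 66 were lower (0.229%). Among the 18377 genes with a row of 1 symbol, 69 were higher (0.375%) and 36 were lower (0.196%). Without the requirement on size, 3651 genes were higher (19.9%) and 4040 lower (22%). The 69 higher genes had a median size of 1.33 log2, and 12 of them passed 2 log2. The 36 lower genes had a median size of 1.23 log2, and 1 passed 2 log2. At the border, CMKLR1 and OR2M4 at 1.01 were just inside and ZNF675 at 0.99 just outside, and among lower genes CKB and CNIH3 at -1 were inside and GCNT4 at -0.97 outside. The median over all genes was -0.01 log2. The counts of rows depended on the arrays: without A95 replicate 1 there were 208 higher and 108 lower rows, without A58 replicate 2 there were 186 higher, and without A67 replicate 1 or A67 replicate 2 there were 117 or 113 lower.

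The same 4 arrays were also compared by replicate number, which sets A67 replicate 2 and A58 replicate 2 against A95 replicate 1 and A67 replicate 1. By the same rule, 50 rows were higher and 47 lower in the arrays numbered 2, 97 in all. No row can meet the rule in both comparisons, since the orders of the arrays exclude each other. The 97 rows were dim, with a median level of 4.16 against 6.45 for the 187 rows and 7.39 for all rows, and 19 had 1 symbol. Of the 187 rows, 108 had 1 symbol, 16 several and 63 none.

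**Figure D2:**
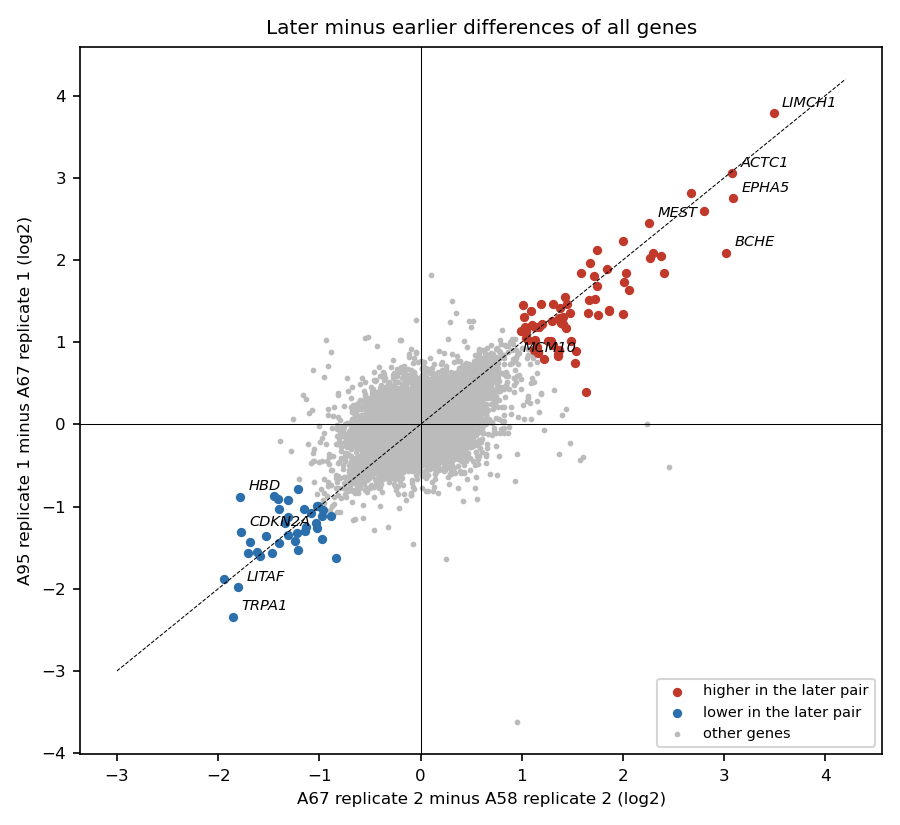
Differences in log2 of 18377 genes between arrays numbered 2 (A67 minus A58, x axis) and between arrays numbered 1 (A95 minus A67, y axis), each point 1 gene, with the 69 higher genes in red, the 36 lower genes in blue, the other genes in grey and equality as a dashed line. LIMCH1 lies at the upper right and TRPA1 and LITAF at the lower left. The coloured genes were chosen on both axes.

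The genes of p16 and the RB axis differed in part. Of 27 measured genes, 14 were higher and 5 lower without overlap (background 19.9% and 22%), with a median of 0.19 log2. CDKN2A, whose level entered the choice of the pairs, is among the lower genes of this list. CDKN2C had no row of 1 symbol. CCNE2, a cyclin of the G1 to S transition, was at 10.32 and 10.30 in the later pair, against 9.46 and 9.42 in the earlier pair, and the other 10 arrays reached 9.13 at most. RBL1, the RB relative p107, was at 10.61 and 10.59, against 9.80 and 9.74. Both genes stood above all other arrays of the series. E2F8, a repressor of the E2F family, was at 8.04 and 7.84 in the later pair, against 7.07 and 7.24 in the earlier pair. CDK2, the partner of cyclin E, differed by 0.54 log2, RB1 by 0.41, CDK6 by 0.39, E2F1 by 0.32 and CDK4 by 0.19, all higher without overlap. CCND1, the cyclin that pairs with CDK4 and CDK6, went the other way, at 11.74 and 11.67 in the later pair, against 12.13 and 12.15 in the earlier pair. The inhibitor gene CDKN1A was also lower, by 0.43 log2. CCND1 and CDKN1A were, like CDKN2A, below all other arrays in the later pair.

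Genes that license and fire replication origins were higher as a group. Of 31 measured genes, 28 were higher and 0 lower without overlap (19.9% and 22% of all genes), the median was 0.53 log2, and 28 stood above all other 12 arrays, a position that 5.62% of all genes held. The mean over the 31 genes was 9.94 and 9.88 in the later pair, against 9.45 and 9.39 in the earlier pair, and the other 10 arrays lay between 8.30 and 9.34. None differed by 1 log2. The largest differences of the list were in CDC6, which loads the MCM helicase, at 11.15 and 11.16 in the later pair, against 10.24 and 10.18 in the earlier pair, and in CLSPN, the checkpoint mediator claspin, at 10.46 and 10.47 against 9.67 and 9.44. GINS1, a subunit of the replicative helicase, was at 10.47 and 10.45 in the later pair, against 9.75 and 9.72 in the earlier pair. RECQL4, ORC2 and DBF4 overlapped. The printed promoter stretches of MCM10, CDC6 and CLSPN, with E2F letters, belong to this list.

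Replication fork and nucleotide synthesis genes showed the same direction, with 28 of 29 measured higher and 0 lower (19.9% and 22% of all genes), and a median of 0.44 log2. CHAF1B, a chromatin assembly subunit, was at 10.07 and 9.86 in the later pair, against 9.23 in both arrays of the earlier pair. UHRF1, which brings the maintenance methyltransferase to replicating DNA, was at 10.77 and 10.72, against 10.09 and 10.13. For both genes an array outside the 4 was higher still, CHAF1B with up to 10.46 and UHRF1 with up to 10.92. FEN1, the flap endonuclease, differed by 0.62 log2 and RFC5, a clamp loader subunit, by 0.61. POLD2 overlapped.

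All 34 measured mitotic genes were higher without overlap (19.9% of all genes), by 0.14 to 0.65 log2 and with a median of 0.32, and 30 stood above all other 12 arrays (5.62% of all genes). The sizes were smaller than among the licensing genes. MKI67, the proliferation marker Ki-67, was at 10.91 and 10.88 in the later pair, against 10.82 and 10.62 in the earlier pair, so that the nearest arrays of the 2 pairs lay close together. HMMR, a spindle protein, was at 10.24 and 10.28, against 9.61 in both arrays of the earlier pair. CDK1, the mitotic kinase, differed by 0.61 log2, CDC25C, its activating phosphatase, by 0.54, and UBE2C, a ubiquitin-conjugating enzyme of mitotic exit, by 0.52. CENPA had no row of 1 symbol.

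Recombination repair genes had the largest median of these lists, 0.61 log2, with 14 of 14 measured genes higher without overlap (19.9% of all genes) and 12 above all other 12 arrays (5.62%). BRCA1, a core recombination factor, was at 9.64 and 9.57 in the later pair, against 8.82 and 8.72 in the earlier pair. RAD54L, a motor protein of strand exchange, differed by 0.76 log2, and EXO1, a resecting nuclease, and BARD1, the partner of BRCA1, each by 0.75. With each array centred on its median, 12 of the 14 repair genes and 31 of the 34 mitotic genes were higher without overlap. Leaving out 1 of the 4 arrays only relaxes the overlap rule, so it could not lower the counts of these 2 lists. BRCA2, FANCA and FANCD2 were among the genes of the list with no row of 1 symbol.

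Targets of p53 went the other way. Of 23 measured genes, 17 were lower and 1 higher without overlap (background 22% and 19.9%), with a median of -0.29 log2, and 7 lay below all other 12 arrays, a position held by 3.97% of all genes. SPATA18, a mitochondrial quality control gene, was at 6.55 and 6.51 in the later pair, against 7.46 and 7.26 in the earlier pair. TP53INP1, a stress-induced protein, was at 7.74 and 7.49, against 8.46 and 8.30. FAS, the death receptor, differed by -0.51 log2. CDKN1A, which also belongs to the RB axis, was at 10.38 and 10.33 in the later pair, against 10.90 and 10.66 in the earlier pair. BTG2 and FDXR had no row of 1 symbol. Of the list, POLH, a translesion polymerase, was the 1 gene higher without overlap, by 0.21, and without A67 replicate 2 there were 3.

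**Figure D3:**
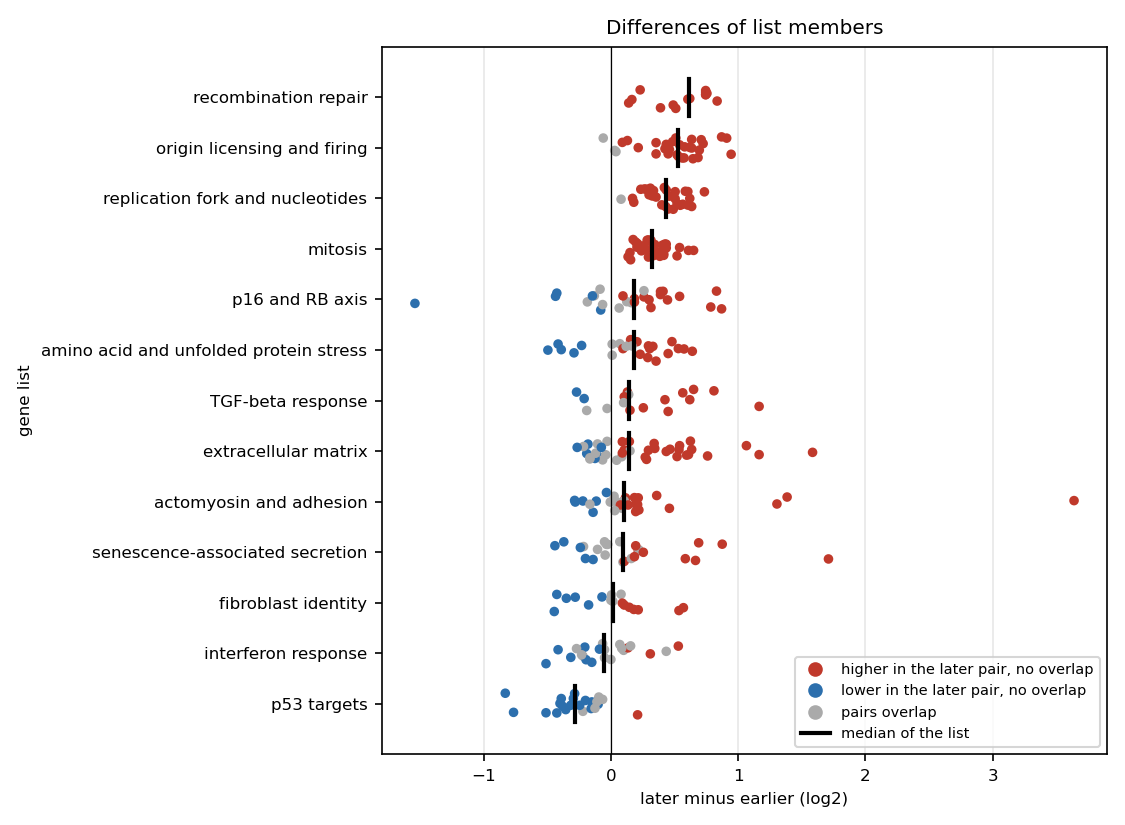
Later minus earlier differences in log2 (x axis) of the members of 13 gene lists (y axis), each point 1 gene, red where higher and blue where lower without overlap, grey where the pairs overlap, with the median of each list as a black bar. Vertical spread within a list only separates points. The medians run from 0.61 for recombination repair to -0.29 for p53 targets, and CDKN2A and LIMCH1 lie far outside the spread of their own lists.

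The largest positive differences joined genes of unlike function. After LIMCH1 came ACTC1, the cardiac form of actin, at 9.76 and 9.74 in the later pair, against 6.68 in both arrays of the earlier pair. EPHA5, an ephrin receptor, was at 8.91 and 8.67, against 5.82 and 5.92, and PTPRZ1, a receptor tyrosine phosphatase, at 8.09 and 8.0, against 5.42 and 5.18. ACTC1 was highest of all arrays in the later pair, but it was also at 8.63 in A50 replicate 2 and 8.57 in A58 replicate 1. In arrays outside the 4, EPHA5 reached 9.52 and PTPRZ1 reached 7.96. ALDH1A1, which makes retinoic acid from retinaldehyde, was at 8.38 and 8.35 in the later pair, against 5.58 and 5.75 in the earlier pair, and no other array exceeded 5.84. BCHE, butyrylcholinesterase, was at 7.28 and 6.51, against 4.26 and 4.42. HSD11B1, which regenerates cortisol from cortisone, was at 8.72 and 8.41, against 6.34 and 6.36. MEST, an imprinted gene of the hydrolase family, differed by 2.36 log2, yet its level of 9.33 and 9.18 in the later pair was below the 10.42 of primary replicate 1. GPC5, a glypican, differed by 2.19, OR51I1, an olfactory receptor, by 2.15, RAB17, a GTPase of membrane traffic, by 2.13, and DNAJC6, the clathrin-uncoating factor auxilin, by 2.12.

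The largest negative difference was that of TRPA1, an irritant-sensing cation channel, at 7.32 and 7.09 in the later pair, against 9.17 and 9.43 in the earlier pair. TMEM35A, a chaperone of acetylcholine receptors, was at 8.32 and 8.25, against 10.26 and 10.13. LITAF, an endosomal membrane protein, was at 6.26 and 6.21, against 8.06 and 8.19. TRPA1 and LITAF were lowest of all 14 arrays in the later pair, but TMEM35A was as low as 5.49 in an array outside the 4. CEMIP, which takes part in hyaluronan breakdown, was at 9.53 and 9.43 in the later pair, against 11.23 and 11.00 in the earlier pair. EPB41L3, a linker of membrane and cytoskeleton, differed by -1.60 log2, MGARP, a mitochondrial protein, by -1.59, QPCT, glutaminyl cyclase, by -1.56, and MANSC1 by -1.52. NETO2, an auxiliary subunit of kainate receptors, differed by -1.45, KCNJ2, an inward rectifier of potassium, by -1.42, and FABP4, a fatty acid binding protein, by -1.37. Of the 36 lower genes, 15 lay below all other 12 arrays in the later pair (3.97% of all genes), and of the 69 higher genes 29 lay above all of them (5.62%). For 14 of the 69 higher genes, ACTA2, MYOCD and MEST among them, the earlier pair was itself the lowest of the 14 arrays. Such positions follow in part from the choice of the 2 pairs.

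**Figure D4:**
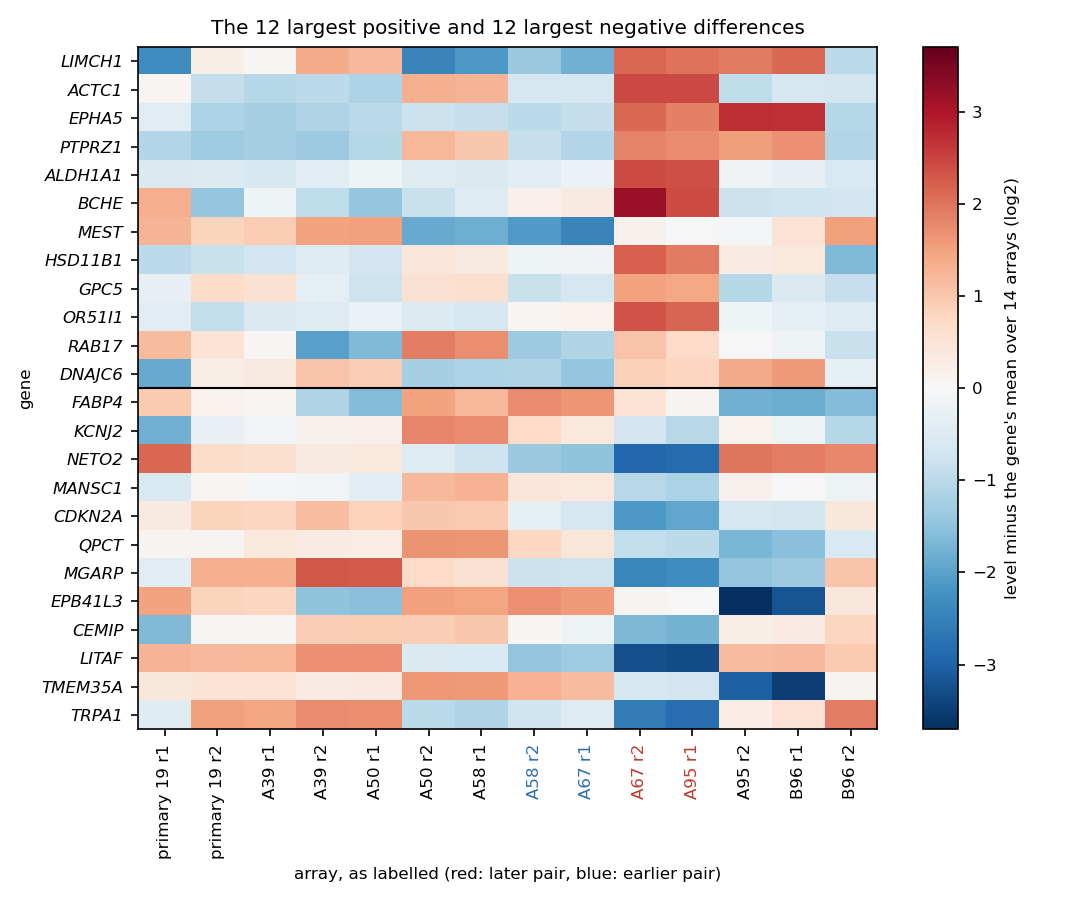
The 12 largest positive (upper block) and 12 largest negative differences (lower block) as rows and the 14 arrays in label order as columns, coloured by the log2 level minus the gene's mean over the 14 arrays, with the later pair's names in red and the earlier pair's in blue. ALDH1A1 is high in the later pair and at most 5.84 elsewhere, and BCHE is highest in the later pair and next at 5.44 in primary replicate 1. LIMCH1, EPHA5 and PTPRZ1 are also high in A95 replicate 2 and B96 replicate 1. In A50 replicate 2 and A58 replicate 1, ACTC1 is at 8.63 and 8.57 and PTPRZ1 at 7.48 and 7.25.

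The direction of the step was compared with other arrays in description only, since the levels of the earlier pair entered the choice. Of the 69 higher genes, 46 were above both earlier arrays in A95 replicate 2 and B96 replicate 1, compared with 36.4% of all genes. Of the 36 lower genes, 27 were below both earlier arrays there, compared with 30.4%. In A50 replicate 2 and A58 replicate 1, the counts were 34 of 69 (28.1% of all genes) and 8 of 36 (27.9%). In A39 replicate 2 and A50 replicate 1, they were 28 of 69 (31.8%) and 17 of 36 (27.1%).

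Among genes of actomyosin and adhesion, 15 of 29 measured were higher and 6 lower without overlap, against 19.9% and 22% of all genes, so the lower share was near the background. The list had a median of 0.11 log2, and 3 genes passed 1 log2, LIMCH1 among them. The mean of the list was 10.59 and 10.57 in the later pair, against 10.37 and 10.24 in the earlier pair. The other 10 arrays lay above both pairs, at 10.66 to 11.22. ACTA2, the smooth muscle actin, was at 12.40 in both arrays of the later pair, against 11.09 and 10.94 in the earlier pair, while the other 10 arrays lay between 12.15 and 12.77. The earlier pair was thus the one that stood apart for ACTA2. ITGB3, an integrin subunit, was at 8.69 and 8.42 in the later pair, against 7.25 in both arrays of the earlier pair, and TPM1, a tropomyosin, differed by 0.46. TAGLN and CNN1, markers of contractile cells taken here after their values were seen, differed by 0.20 and 0.19. Without A67 replicate 1 the median of the list was 0.03, and with arrays centred on their medians 8 of its genes were higher without overlap.

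Extracellular matrix genes were higher more often than lower, 22 against 6 of 39 measured (background 19.9% and 22%), with a median of 0.15 log2. The mean of the matrix list was 9.92 in both arrays of the later pair, against 9.73 and 9.61 in the earlier pair. The other 10 arrays lay above both pairs, at 9.95 to 10.56, so the later pair was higher only relative to the earlier pair. ELN, tropoelastin, was at 10.71 and 10.77 in the later pair, against 9.05 and 9.26 in the earlier pair. POSTN, periostin, was at 9.97 and 9.76, against 8.95 and 8.45. COL4A1, a basement membrane collagen, was at 9.86 and 9.84, against 8.87 and 8.70, and VCAN, versican, differed by 0.76. None of the 4 was an extreme of the series in the later pair. In the TGF-beta response list, 11 of 18 were higher and 2 lower, with a median of 0.15 log2, and ID1, an inhibitor of basic helix-loop-helix factors, was at 11.85 and 11.66, against 10.97 and 10.92. SMAD7, the feedback inhibitor of the pathway, differed by 0.65 and ID2 by 0.62. The median of the matrix list was 0.23 without A67 replicate 2, and that of the TGF-beta list 0.25 without A67 replicate 1 and 0.24 without A95 replicate 1.

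Genes of the senescence-associated secretion were, as a group, not lower in the later pair than in the earlier pair. The mean of the list was 8.19 in both arrays of the later pair, against 7.99 and 8.05 in the earlier pair. The other 10 arrays lay above both pairs, at 8.20 to 8.65, so against the rest of the series the list was low in both pairs. Of 25 measured, 10 were higher and 5 lower without overlap, with a median of 0.10 log2, and the lower share was near the 22% of all genes (19.9% were higher). MMP3, stromelysin, was at 8.13 and 7.94 in the later pair, against 6.39 and 6.26 in the earlier pair. HGF, the hepatocyte growth factor, differed by 0.88, IL6, an inflammatory cytokine, by 0.69, and EREG, an epidermal growth factor relative, by 0.67. IL6 was at 7.25 and 6.87 in the later pair, against 6.19 and 6.55 in the earlier pair, with up to 11.08 elsewhere in the series. The median of the list was -0.01 without A58 replicate 2, 0.17 without A67 replicate 1 and -0.02 without A95 replicate 1, so its sign rests on single arrays.

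Among genes of amino acid and unfolded protein stress, 14 of 24 were higher and 5 lower, with a median of 0.19 log2, while 19.9% of all genes were higher and 22% lower. PHGDH, the first enzyme of serine synthesis, was at 9.87 and 9.73 in the later pair, against 9.20 and 9.12 in the earlier pair. HYOU1, a chaperone, differed by 0.58, MTHFD2, a mitochondrial folate enzyme, by 0.53, and XBP1, a factor of the unfolded protein response, by 0.48. Of 20 genes of Polycomb and DNA methylation, 7 were higher and 5 lower, with a median of -0.03. EZH2, the catalytic subunit of PRC2, was at 10.10 and 10.15 in the later pair, against 9.65 and 9.60 in the earlier pair, and the readers and subunits MBD2 and CBX7 differed by -0.33 and -0.27. BMI1 had no row of 1 symbol. Interferon response genes were mostly without separation, with 3 higher and 7 lower of 22 and a median of -0.06. IFIT2, an interferon-induced RNA-binding protein, was at 6.71 and 6.15 in the later pair, against 7.08 and 6.80 in the earlier pair. Cholesterol synthesis genes had 5 higher and 4 lower of 16 and a median of 0.02. Against the background of 19.9% and 22%, the lower shares of the stress, Polycomb and cholesterol lists lay near that of all genes. Leaving out 1 array moved the median of the Polycomb list to between -0.02 and 0.07, that of the interferon list to between -0.10 and -0.02 and that of the cholesterol list to between 0.01 and 0.04. The interferon count of 3 higher genes was 5 without A67 replicate 1 or A95 replicate 1, 6 without A58 replicate 2, 8 without A67 replicate 2 and 5 with arrays centred on their medians.

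Around CDKN2A on chromosome 9, no measured neighbour differed by 1 log2. CDKN2B, the gene of the sister inhibitor p15, was at 9.13 and 9.73 in the later pair, against 9.42 and 9.70 in the earlier pair, so the pairs overlapped. MTAP, an enzyme of methionine salvage, was higher, at 9.91 and 9.71, against 9.35 and 9.30. CDKN2A-AS1 differed by -0.04 and overlapped, and DMRTA1 was lower by 0.37 without overlap. ELAVL2 differed by -0.40, also without overlap. Of the 7 measured genes in the list, 1 was higher and 3 lower without overlap (background 19.9% and 22%), and 6 differences were negative. CDKN2A itself, by which the pairs were chosen, is 1 of the 3 lower. The median of -0.16 was -0.27 to -0.42 with any 1 of the 4 arrays left out. CDKN2B-AS1 had no row of 1 symbol.

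Several gene clusters held groups of higher genes or rows, a pattern picked after the values were seen. Of 17 rows assigned to several killer cell immunoglobulin-like receptor (KIR) symbols, 15 were higher without overlap, as were 19.9% of all genes. Of these rows, 8 passed 1 log2 (0.419% of all rows), by 1.34 to 3.27. Those 8 rows were at 7.63 to 8.90 in the later pair, against 4.56 to 6.85 in the other 12 arrays. These receptors belong to natural killer cells and share sequence, so the rows name the family and no single gene. FCAR, an immunoglobulin A receptor next to them on chromosome 19, was at 7.26 and 7.17 in the later pair, against 5.67 and 5.33 in the earlier pair. NCR1, the next measured gene after FCAR, overlapped. LILRP2 and LILRB1, the measured genes before FCAR, also overlapped and differed by -0.11 and -0.13. PTPRC, the common leukocyte antigen, overlapped, at 5.49 and 5.20 in the later pair, against 5.42 and 5.6. Of 9 measured markers of blood cells, 0 were higher and 2 lower (background 19.9% and 22%), so the lower share was near that of all genes. Without A67 replicate 1 or A67 replicate 2, which relaxes the overlap rule, 3 of the 9 were higher.

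On chromosome 1, all 5 measured OR2M olfactory receptor genes were higher without overlap (19.9% of all genes) and 3 passed 1 log2 (0.375%). OR2M2 was at 5.70 and 5.79 in the later pair, against 3.96 and 3.67 in the earlier pair. On chromosome 11, OR51B4 was at 9.52 and 9.37, against 7.68 and 7.48, OR51I1 at 8.69 and 8.51, against 6.42 and 6.49, and OR51B5 at 7.90 and 7.52, against 6.04 and 6.13. These olfactory receptors lie beside the beta-globin genes. The cluster did not move as a block: OR51I2 and OR51Q1 overlapped, at 0.005 and 0.055, and OR51M1 and OR51B6 differed by only 0.175 and 0.43. HBD, a minor adult globin, was lower at 6.94 and 7.09 in the later pair, against 8.72 and 7.97 in the earlier pair. HBB, the adult globin, differed by -0.73, and HBE1, the embryonic globin, by 0.76. Of the 11 genes of this cluster, 7 were higher and 2 lower without overlap (background 19.9% and 22%).

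**Figure D5:**
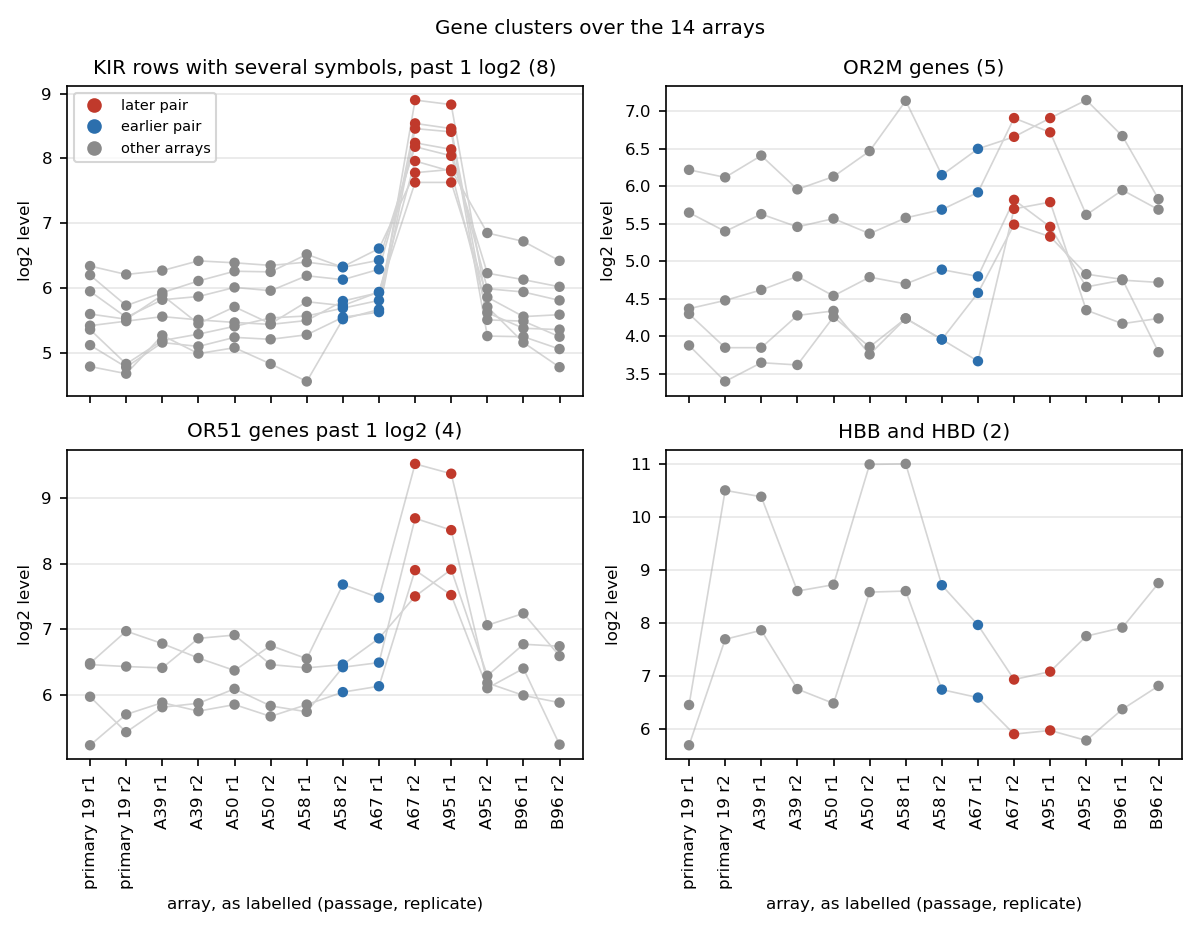
Log2 levels (y axes, separate scales) of the 8 KIR rows past 1 log2, the 5 OR2M genes, 4 OR51 genes past 1 log2, and HBB and HBD, in the 14 arrays in label order (x axis), each line 1 row or gene, with the later pair in red, the earlier pair in blue and the others in grey. The KIR rows reach 7.63 to 8.90 in the later pair and stay at or below 6.85 in the other 12 arrays.

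The labelled groups, which the step crosses, were compared by limma over all 14 arrays. In A67 versus A58, 0 of 28869 rows passed an adjusted p of 0.05 (0%), 387 rows had an unadjusted p under 0.05, and the smallest adjusted p was 1.00. In A95 versus A67, 0 rows passed (0%), 904 had an unadjusted p under 0.05, and the smallest adjusted p was 0.883. The A67 group holds 1 array of each pair and so mixes the sides, while A58 and A95 each hold 1 array of a pair beside 1 outside both. CDKN2A differed by -1.67 ± 0.61 log2 (SE, n = 2 each, limma adjusted p = 1.00) in A67 versus A58 and by 0.10 ± 0.61 log2 (SE, n = 2 each, limma adjusted p = 0.979) in A95 versus A67. The A67 versus A58 difference of CDKN2A was -0.91 without A67 replicate 2, -1.01 without A58 replicate 1, -2.33 without A58 replicate 2 and -2.43 without A67 replicate 1. LIMCH1 differed by 1.91 ± 1.5 log2 in A67 versus A58 and by 1.795 ± 1.5 log2 in A95 versus A67. MCM10 differed by 1.23 ± 0.50 in A67 versus A58 and by -0.11 ± 0.50 in A95 versus A67. With 1 array left out, MCM10 in A67 versus A58 was between 0.46, without A58 replicate 1, and 1.99, without A58 replicate 2, and it was 0.76 without A67 replicate 2.

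Fibroblast genes were bright in both pairs. VIM, vimentin, was at 12.88 and 12.89 in the later pair, against 12.97 and 12.94 in the earlier pair, and COL1A1, a fibrillar collagen chain, at 12.77 and 12.74, against 12.71 and 12.59. Of 17 fibroblast genes, 7 were higher and 6 lower, both above the 19.9% and 22% of all genes, with a median of 0.02, and the mean of the list was 10.74 and 10.70 in the later pair, against 10.73 and 10.68 in the earlier pair. The lists for epithelial, endothelial, blood, neural and muscle cells had means of 6.31 to 7.69 in the later pair and 6.41 to 7.79 in the earlier pair, and array medians over the series were 7.26 to 7.48. KRT18, which fibroblasts can also express, was the brightest epithelial marker, at 10.33 and 10.34 in the later pair, against 10.18 and 10.25 in the earlier pair. Of these 48 markers, 4 were higher and 7 lower without overlap (background 19.9% and 22%), and 0 passed 1 log2. With 1 array left out, medians of these 5 lists lay between -0.32 and 0.17 and that of the fibroblast list between -0.03 and 0.07. With arrays centred on their medians, 4 of the 17 fibroblast genes were higher. Without A67 replicate 1, 5 epithelial, 3 endothelial and 4 muscle markers were higher, and without A67 replicate 2 these counts were 7, 4 and 5. Without detection calls in the table, absence of a transcript could not be read.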

How the data were processed

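RNA of WI-38 cells was extracted with TRI reagent and labelled as sense target across whole transcripts, per the labels' protocols. The authors deposited their log2 values as a single table of 28869 rows and 14 columns, with 2 decimals, running between 0 and 14.27. The log base was read from that range. How they were normalized was not given in the sources used here. Without detection calls or background signals, the number of arrays limits the precision. Array medians were 7.26 to 7.48.

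Rows were named from the platform's annotation and RefSeq gene IDs: 19310 had 1 symbol, 19279 of them matched by gene ID, 1752 had several and 7807 none. Each of the 18377 genes was read from its row with the highest mean. The difference is the mean of the later pair minus the mean of the earlier pair. The members and the 22 gene lists were chosen with earlier results of these data known. Genes were named as CDKN2A, LIMCH1 and MCM10, the 12 largest positive and 12 largest negative differences past 1 log2 without overlap, up to 4 of each list in the direction of its median, and a set of cell cycle genes with TERT. Others are named with a statement that they were chosen after their values were seen, or as part of a gene cluster, list count or border.

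Labelled groups were compared with limma 3.58.1 in R 4.3.3, with Benjamini-Hochberg adjustment over all rows, two-sided, and the scripts were tested on simulated data. Python 3.11.15 with pandas 2.3.3 and numpy 2.4.6 made the descriptions. Alternatives were each array left out, values quantile normalized or centred by median, dim rows removed below the 30th percentile, 1 row per gene, other thresholds, overlap allowed, the replicate number as a block, a trended robust prior, weights per array, and fits on only the compared groups. In the main fit, p-values rest on a spread pooled over the duplicates of all 7 labelled groups, which may in part be technical. Duplicates that differ widely, as the A95 arrays at 6.54 and 7.84 for CDKN2A, raise that spread.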

Additional observations from a re-analysis of the deposited data

How the results depend on the processing

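The counts of higher and lower rows, 121 and 66, kept their order under every alternative run. They were 802 and 521 at 0.5 log2, 54 and 19 at 1.5 log2, 54 and 40 for rows above the 30th percentile of row means, and 69 and 36 with 1 row per gene; fewer rows or another threshold enter by construction. Quantile normalization gave 114 and 61, centring 131 and 57, and allowing overlap 129 and 73. Leaving out 1 of the 4 arrays gave 142 to 208 higher and 87 to 117 lower rows, where a single array stands for a side, and a CDKN2A difference of -1.67 to -1.42. Under quantile normalization and centring, the named genes kept the sign of their difference except TERT, at -0.01 after quantile normalization, against 0.005 as deposited. The labelled contrast A67 versus A58 stayed at 0 rows with each array left out, and A95 versus A67 gave 0 to 6, with 6 rows without A95 replicate 1 and 1 without A67 replicate 1. In A95 versus A67, CDKN2A was -0.00268 after quantile normalization and -0.02 after centring, against 0.10 as deposited. With arrays left out, the differences there ranged between -0.66 and 0.86 for CDKN2A, -0.16 and 3.75 for LIMCH1, and -0.58 and 0.36 for MCM10, and in A67 versus A58 between -0.05 and 3.86 for LIMCH1, -2.43 and -0.91 for CDKN2A, and 0.46 and 1.99 for MCM10. The cause of these changes was not tested. With the replicate number as a block, both contrasts had 0 rows (331 and 728 at an unadjusted p under 0.05), and CDKN2A in A67 versus A58 was -1.67, as without it. The deviations of same-numbered arrays correlated at 0.0987 and -0.0824. These deviations also hold the differences between unlike duplicates of a label, so they cannot show whether same-numbered arrays belong together.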

Other observations

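Other gene clusters and classes were picked after their values were seen. Of 18 measured clustered protocadherin genes of the beta group, 11 were higher and 2 lower without overlap (background 19.9% and 22%), and 0 were above all other 12 arrays. PCDHB8 was at 8.16 and 8.31 in the later pair, against 7.15 and 6.86 in the earlier pair, and PCDHB2 was at 7.86 and 7.95, against 8.70 and 8.60. On chromosome 7, CROT, a peroxisomal carnitine acyltransferase, was at 9.93 and 9.86 in the later pair, against 11.24 and 11.21 in the earlier pair. Its neighbours ABCB1, a drug efflux pump, and RUNDC3B were higher, by 1.02 and 1.05 log2, while ABCB4, between CROT and ABCB1, differed by -0.17.

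Among germline and cancer-testis genes, 5 of 18 were higher and 2 lower (background 19.9% and 22%), with a median of 0.04 log2, which was -0.01 without A58 replicate 2, -0.03 without A95 replicate 1 and 0.13 without A67 replicate 2, when 8 genes were higher. MAGEC2 was at 7.43 and 7.27 in the later pair, against 6.04 in both arrays of the earlier pair, and SSX1 at 8.96 and 8.66, against 7.90 and 7.63. SSX1 was above all other 12 arrays in the later pair. MAGEC1 differed by 0.84 and MAGEB2 by 0.60. CXCL12, a chemokine of stromal cells, was at 9.32 and 9.31 in the later pair, against 10.63 and 10.44 in the earlier pair. DPP4, a cell surface peptidase, was at 8.76 and 8.48, against 9.79 and 9.68.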
